A study of Mus musculus with 2 samples.

Results

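Interferon-stimulated genes and their regulators were followed in mouse blood as a set of 30 genes, out of 37074 gene names on the array. The members were the probes outside the array controls whose gene name was identical to a member symbol, which gave 49 probes. The set comprised 3 Ifit genes, 6 oligoadenylate synthetase genes of the Oas and Oasl families, 2 guanylate-binding protein genes, 4 nucleic acid sensors, 4 genes of the STAT and IRF transcription factors, Isg15 and Usp18, 7 further antiviral effectors, and Ifi35 and Parp14. Total RNA was hybridised to 1-colour (Cy3) Agilent mouse arrays, with 1 array for blood after heat and 1 array for control blood. Mice, or their blood, had been held in a water bath for 1 h at 37 °C and then for 1 h at 38.5 °C in the heat group. The study asked which genes respond to that heat. The labels gave no strain, genotype, age or sex for either group, and no temperature or time for the control, so the pretreatment, the heat and the handling cannot be told apart. The protocol text mentioned 3 replicates a line, whereas 1 array a group was analysed here. In both groups red cells had been lysed separately and globin transcripts depleted. Every difference below is the difference between 2 arrays, without a replicate check, and no test was possible.

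Cells that sense viral RNA or DNA make type I interferons, which bind a cell surface receptor and activate the JAK kinases. The kinases phosphorylate STAT proteins, of which STAT2 joins IRF9 in the factor ISGF3, which binds the interferon-stimulated response element (ISRE) in the promoters of interferon-stimulated genes. The products of those genes block viral entry, translation or replication, and some of them, such as IRF7 and the RNA sensors, feed back on interferon production. In blood, plasmacytoid dendritic cells are known as a source of type I interferon, and monocytes as cells that respond to it.

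The promoter sequences were not read when the members were chosen by name. Interferon-stimulated genes are known for the ISRE, however, so an excess of it among them is no independent result. Windows from 250 bases before to 50 bases after the start of transcription came from RefSeq (GRCm38.p6), and 23 members had 29 such windows. An ISRE core, searched as GAAANNGAAA on either strand (TTTCNNTTTC on the other), was present in 13 of those 23 genes (56.5%), against 3.99% of all 27025 genes with a window. The ISRE stretches of 60 bases below belong to members with a match that lies, with 25 bases on each side, wholly before the start. They run from the lowest to the highest difference, with every whole match of the ISRE core in capitals. Oas1a, Oas1g, Ddx58 and Ifih1 also had a match, but too near to the start or past it, and are not printed. Each is written 5′ to 3′ in the direction of its gene.
Ifit3, chr19:34583348-34583407, + strand: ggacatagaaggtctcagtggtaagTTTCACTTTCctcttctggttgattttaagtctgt
Rsad2, chr12:26456538-26456597, - strand: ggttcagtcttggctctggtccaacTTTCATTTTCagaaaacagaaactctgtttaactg
Oas3, chr5:120777700-120777759, - strand: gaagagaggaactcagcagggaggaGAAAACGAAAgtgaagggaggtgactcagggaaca
Isg15, chr4:156200856-156200915, - strand: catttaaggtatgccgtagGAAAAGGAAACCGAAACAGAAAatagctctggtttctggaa
Ifit1, chr19:34640760-34640819, + strand: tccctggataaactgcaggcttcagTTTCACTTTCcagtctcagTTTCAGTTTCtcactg
Gbp3, chr3:142559974-142560033, + strand: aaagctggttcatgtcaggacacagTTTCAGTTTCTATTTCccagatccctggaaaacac
Bst2, chr8:71537568-71537627, - strand: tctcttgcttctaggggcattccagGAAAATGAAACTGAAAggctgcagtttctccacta
Gbp2, chr3:142620579-142620638, + strand: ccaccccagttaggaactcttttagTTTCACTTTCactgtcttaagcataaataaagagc
Stat2, chr10:128270251-128270310, + strand: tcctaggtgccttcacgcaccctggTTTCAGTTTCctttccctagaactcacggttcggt
The Isg15 stretch held 3 overlapping matches in a single run, and the Gbp3 and Bst2 stretches held 2 overlapping matches each. The Ifit1 stretch held 2 separate matches, at 104 and 85 bases before the start. The match lay 222 bases before the start in Stat2 and 59 bases before it in Gbp2. Ifit3 had the printed match at 156 bases before the start and a second at 122, which its stretch does not hold in full. A match is a description of the letters and not a measured binding site.

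Of the 49 probes, 47 were well above background on both arrays, a flag that the scanner software sets for a spot brighter than its surroundings. The exceptions were the second probe of Mx2, which was above background on neither array, and the second probe of Dhx58, which passed on the heat array alone. All 30 genes therefore had a usable probe on each array, against 18562 of 37074 gene names on the array (50.1%). A single usable probe represented 15 of the members, and 2 or more represented the other 15. Most probes lay on 1 uninterrupted stretch of the mm9 genome, but 4 probes spanned more genomic bases than their own 60 and so crossed an exon junction. Those 4 are printed because each reports spliced RNA of its gene.
Rsad2 probe, chr12:27135585-27138886, - strand: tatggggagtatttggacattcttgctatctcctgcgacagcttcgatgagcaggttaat
Stat2 probe, chr10:127719861-127720302, + strand: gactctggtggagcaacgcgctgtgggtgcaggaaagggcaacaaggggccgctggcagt
Irf1 probe, chr11:53587446-53587591, + strand: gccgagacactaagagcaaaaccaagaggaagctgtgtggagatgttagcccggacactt
Irf7 probe, chr7:148450664-148451014, - strand: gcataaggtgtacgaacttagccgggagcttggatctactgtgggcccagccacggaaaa
No stretch longer than 11 bases was shared between probes of different members. The Oas1a probe, however, was also annotated to a transcript of Oas1g, so its signal cannot be assigned to Oas1a alone. The exon or untranslated region under the other probes was not annotated here.

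In the heat sample the interferon-stimulated genes stayed close to the control sample, with a slight lean towards lower values. No member differed by 2-fold, and the extremes were Oasl2, an oligoadenylate synthetase-like protein that enhances RIG-I signalling, at -0.40 and Stat2, the STAT subunit of ISGF3, at 0.29 on the log2 scale. These differences are heat minus control after each array's log2 processed signal was reduced by that array's 75th percentile, which was a signal of 604 with heat and 620.5 in the control. A gene's value is the mean over its usable probes. Fewer cells of a type and less RNA per cell cannot be told apart in such whole-blood values.

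Differences of at least 2-fold occurred in 123 of 18562 measured genes (0.663%) and in 0 of the 30 members. A smaller step of 0.25 on the log2 scale (1.19-fold) downwards was reached by 3 members, Oasl2, Ifit3 and Rsad2, and by 8.72% of all measured genes. The same step upwards was reached by 1 member, Stat2, and by 9.18% of all genes. Values below 0 were found for 20 of the 30 members (66.7%), against 47.8% of all measured genes. The median difference was -0.05 over the members and 0.01 over all genes. The counts past a step thus rested on 3 genes or fewer. With normexp background correction, which models the background in place of the scanner software's own subtraction, 4 of 30 members were lower by 0.25 under percentile scaling and 4 under quantile normalisation, against 3.99% and 4.86% of all genes. Among the brighter 50% of detected probes, 3 of 26 members were lower by that step, against 3.88% of all genes there. Under the other processing settings, described below, 3 of 30 members were lower by it. The share of all genes there ran from 8.94% (brightest probe per gene) to 25.1% (no filter on dim probes). Whether members passed the step more often than all genes thus depended on the setting.

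Repeated spots give a scale for these values. For 283 probes printed at 10 spots, the SD of the spot differences around their probe's mean was 0.08, and 14 members lay within that distance of 0, as did 42.3% of all genes. Beyond 2 such SDs (0.17) lay 11 members, against 31.5% of all genes. The SD was 0.15 over the 30 members and 0.24 over all measured genes, but most members were bright. In the brightest 25% of measured genes, the SD was 0.17 for the 11 members there and 0.15 for all genes, and in the next 25% it was 0.15 for 13 members and 0.17 for all genes, so at a like level the spreads were close. The scanner software gives its own error for each processed signal, about 10% at the typical member probe, or 0.20 for a log2 difference. That error was exceeded by 10 of the 47 usable member probes (21.3%) and by 21.4% of all usable probes, and no member probe exceeded it by 2 times. By that measure the members' probes differed between the arrays as often as any probes.

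**Figure D1:**
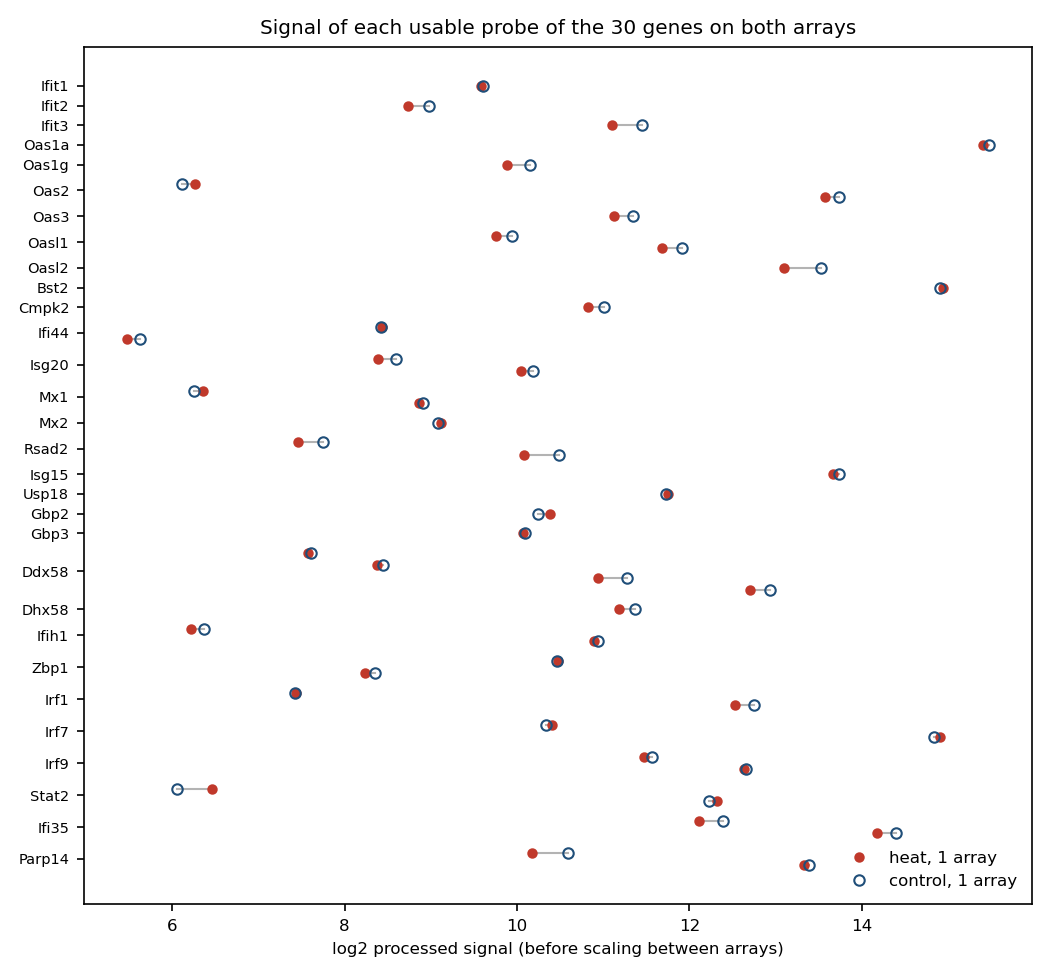
Log2 processed signal of the 47 usable probes of the 30 genes with heat (filled red) and in the control (open blue), before scaling between the arrays, with probes of a gene stacked from the 5′ to the 3′ end of the transcript. The circles of a pair nearly touch for most probes, and the widest gaps belong to Oasl2, Parp14, Rsad2 and Stat2.

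**Figure D2:**
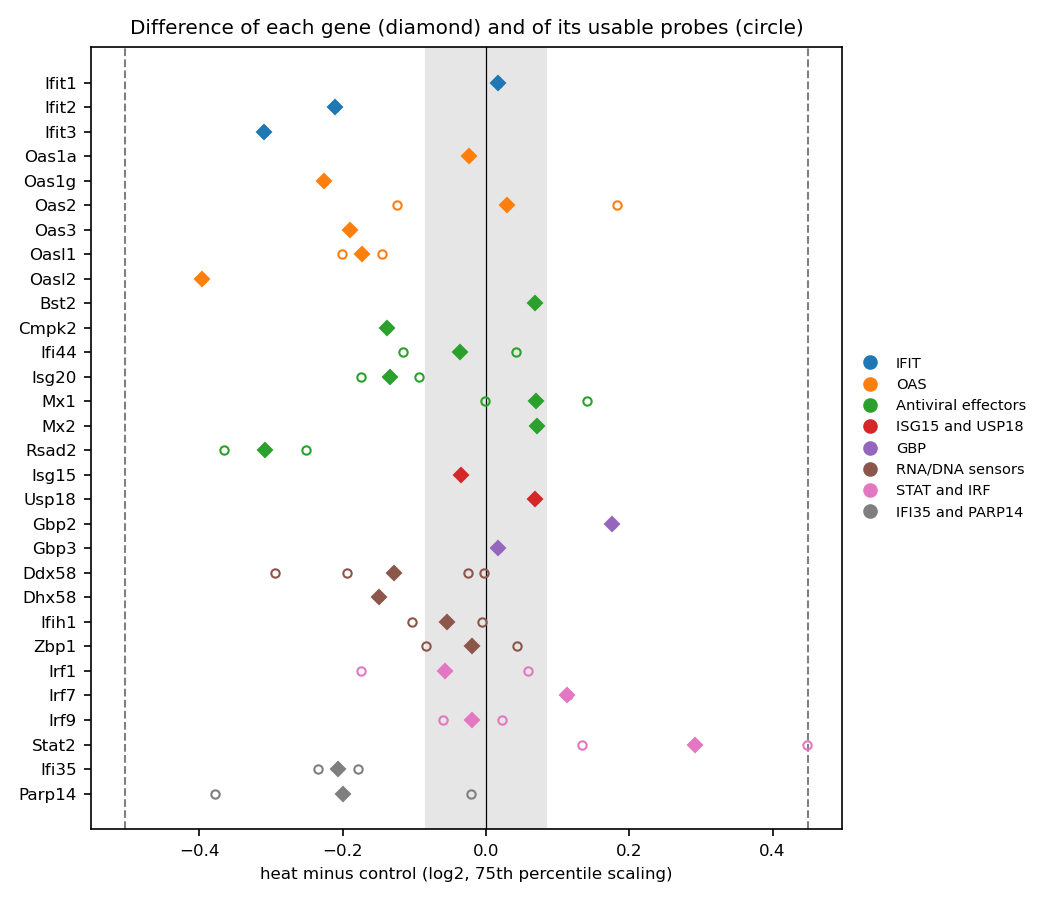
Heat minus control difference (log2) of each member (diamond) and of each usable probe (open circle), coloured by role, with grey shading for 1 spot SD (0.08) around 0 and dashed lines at the limits of the middle 95% of all gene differences (-0.50 and 0.45). No member lies outside the dashed lines, and the dimmer Stat2 probe touches the upper line at 0.45.

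Among the transcription factors, Stat2 had the highest difference of the set, and the IRF genes stood near 0. Stat2 had 2 usable probes. The dim junction probe gave signals of 88.6 with heat and 66.6 in the control, and the bright probe near the transcript's end gave 5127 and 4799. The 2 probes pointed the same way but differed in size, at 0.45 and 0.13, so that the gene's value of 0.29 rested on the dim probe. With the brightest probe alone the difference of Stat2 was 0.13, below the step of 0.25.

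Irf7, the factor that amplifies interferon alpha transcription, gave the closest agreement between probes. Its bright probe read 30746 with heat and 29236 in the control, and its junction probe read 1358 and 1288. Both were slightly higher with heat, at 0.11 each. Irf9, the DNA-binding partner in ISGF3, read 6360 and 6435 at its brighter probe and 2841 and 3042 at the other. Its difference of -0.02 was within the spot SD.

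Irf1, an activator that is itself induced by interferon gamma, had probes of opposite sign. The probe near the 3′ end of the transcript read 5932 with heat and 6873 in the control, a difference of -0.17. The junction probe read 174 and 171, a difference of 0.06. The mean of -0.06 thus hid a disagreement larger than the mean itself. Over the 4 genes of this group the median was 0.05, with 2 genes below 0 (50%), against 47.8% of all measured genes.

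All 4 sensors of foreign nucleic acid were below 0, against 47.8% of all measured genes, with a median of -0.09. Ddx58 encodes RIG-I, the sensor of viral RNA ends, and had 4 usable probes, which read, from the 5′ to the 3′ end of the transcript, 190.1, 333, 1963 and 6679 with heat and 196, 348, 2471 and 7847 in the control. The 2 probes nearer the 5′ end gave differences of -0.00 and -0.02, and the 2 probes nearer the 3′ end -0.29 and -0.19. The gene's value was -0.13.

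Dhx58 encodes LGP2, a RIG-I-like protein without signalling domains. Its usable probe read 2321 with heat and 2644 in the control, and the difference was -0.15. Its second probe read only 30.7 and 25.6, and with that dim probe included the gene's difference was 0.07. Ifih1, which encodes the long RNA sensor MDA5, read 1906 and 1964 at its bright probe and 74.7 and 82.4 at its dim one, for a gene value of -0.05.

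Zbp1, a sensor of Z-form nucleic acid that can trigger cell death, read 1423 with heat and 1419 in the control at the brighter probe. The other probe read 301 and 327. The probes were of opposite sign and the gene's difference was -0.02. The step of 0.25 was reached by none of the 4 sensors.

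The Ifit genes encode tetratricopeptide proteins that bind viral RNA and block its translation. Their probes lie in 1 cluster at chr19:34650244-34723886 (mm9). Ifit3 read 2198 with heat and 2798 in the control, with a difference of -0.31 (1.24-fold lower with heat). Ifit2 read 426 and 506, a difference of -0.21. Ifit1 read 766 and 778, which after scaling was a difference of 0.02.

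Ifit3 and Ifit2 were thus lower with heat, whereas Ifit1, from the same cluster, was level, and each rested on 1 probe. With normexp background correction Ifit1 was at -0.10 under percentile scaling and -0.12 under quantile normalisation, so its sign depended on the processing. The median of the 3 genes was -0.21 and lay between -0.23 and -0.19 in the 9 settings that measured all of them.

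Oligoadenylate synthetases make the second messenger that activates RNase L, and the Oasl proteins are related to them. Oasl2 read 8730 with heat and 11803 in the control, the lowest difference among the members at -0.40 (1.32-fold lower). It ranged from -0.41 to -0.39 over the 10 settings. Of all measured genes, 3.97% lay lower than Oasl2.

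Oas1g read 946 with heat and 1136 in the control (-0.23), and Oas3 read 2228 and 2611 (-0.19). Oasl1, which binds the Irf7 messenger RNA and restrains its translation, read 3280 and 3872 at its brighter probe and 864 and 981 at the other, with a gene value of -0.17. In these 3 genes the heat sample was the lower one at every probe.

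Oas1a read 43583 with heat and 45521 in the control, and its difference of -0.02 was within the spot SD. Oas2 had probes of opposite sign. Its bright probe read 12146 and 13594 (-0.12), and its dim probe read 76.8 and 69.5 (0.18). The average of 0.03 for Oas2 therefore depended on the dim probe, and with the bright probe alone Oas2 was at -0.12.

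Over the 6 genes of this family, 5 were below 0 (83.3%), against 47.8% of all measured genes. The signs of Oas1a and Oas2 changed with the setting. The median of the family was -0.18, between -0.20 and -0.11 under the 10 settings. The probes of Oas1a, Oas1g, Oas2 and Oas3 lie within chr5:121180343-121346794, and those of Oasl1 and Oasl2 within chr5:115362168-115387920 (mm9). Within these clusters the values of neighbours were spread, from -0.23 in Oas1g to 0.03 in Oas2 in the larger one. With its bright probe alone Oas2 was at -0.12, and the probe of Oas1a (-0.02) was also annotated to Oas1g. The spread between these neighbours is therefore uncertain.

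Guanylate-binding proteins are large GTPases that attack the vacuoles of intracellular pathogens. Gbp2 read 1331 with heat and 1210 in the control, a difference of 0.18 and the second highest among the members. Gbp3 read 1077 and 1093, a difference of 0.02. Their median of 0.10 became -0.01 with normexp and percentile scaling and -0.00 with normexp and quantile normalisation. In those settings Gbp2 kept a positive value, at 0.08 and 0.09, while Gbp3 was at -0.10 in each.

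Of the 7 antiviral effectors, 4 were below 0 (57.1%), against 47.8% of all measured genes, and the median was -0.04. Rsad2 encodes viperin, which makes a chain-terminating nucleotide, and was the effector with the lowest value. Its bright probe read 1082 with heat and 1433 in the control, and its junction probe read 176 and 215. The probes gave -0.37 and -0.25, and the gene's value was -0.31.

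Cmpk2, a mitochondrial nucleotide kinase that lies beside Rsad2 in the genome and supplies its substrate, read 1818 with heat and 2055 in the control, a difference of -0.14. Isg20, an exonuclease that degrades RNA, read 1060 and 1161 at its brighter probe and 334 and 387 at the other, and its value was -0.13. These 2 genes were lower with heat at each probe, but by less than the step of 0.25.

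The remaining effectors were within the spot SD of 0. Bst2 encodes tetherin, which holds budding virions at the cell surface, and read 31377 with heat and 30736 in the control (0.07). Mx1 and Mx2 encode dynamin-like GTPases that trap viral nucleoproteins. Mx1 read 467 and 481 at its brighter probe and 82.1 and 76.5 at its dim one (0.07). The dim Mx1 probe is annotated to only 25 genome bases, which lie within the stretch of the brighter probe. The sequences of these probes do not share those bases. Mx2 read 555 and 542 (0.07), and Ifi44 read 345 and 344 at its brighter probe and 44.5 and 49.5 at its dim one (-0.04).

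Isg15 and Usp18 form a conjugation cycle in which the ubiquitin-like protein ISG15 is attached to targets and removed again by USP18. Isg15 read 12988 with heat and 13672 in the control, and Usp18 read 3460 and 3388. Their differences of -0.04 and 0.07 were both within the spot SD. With normexp correction Usp18 stood at 0.17 under percentile scaling and 0.18 under quantile normalisation, above its value with the scanner software's own correction.

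Ifi35, a leucine zipper protein that modulates RIG-I signalling, read 18533 with heat and 21550 in the control at its brighter probe and 4429 and 5351 at the other. Its 2 probes gave -0.18 and -0.23, and the gene's value of -0.21 was thus carried by both. Parp14, an ADP-ribosyltransferase, read 10264 and 10693 at the probe near the 3′ end of its transcript (-0.02) and 1156 and 1543 at the probe near the 5′ end (-0.38). Its value of -0.20 came from the 5′ probe.

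Of the 15 members with several usable probes, 9 had the same sign at every probe (60.0%), against 52.1% of the 6553 genes of this kind on the array. The 9 were Ddx58, Ifi35, Ifih1, Irf7, Isg20, Oasl1, Parp14, Rsad2 and Stat2. The probe SD within a gene averaged 0.13 in the members and 0.19 over the array. Both exceed the spot SD, so the choice of probe mattered more than the spot for these genes.

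**Figure D3:**
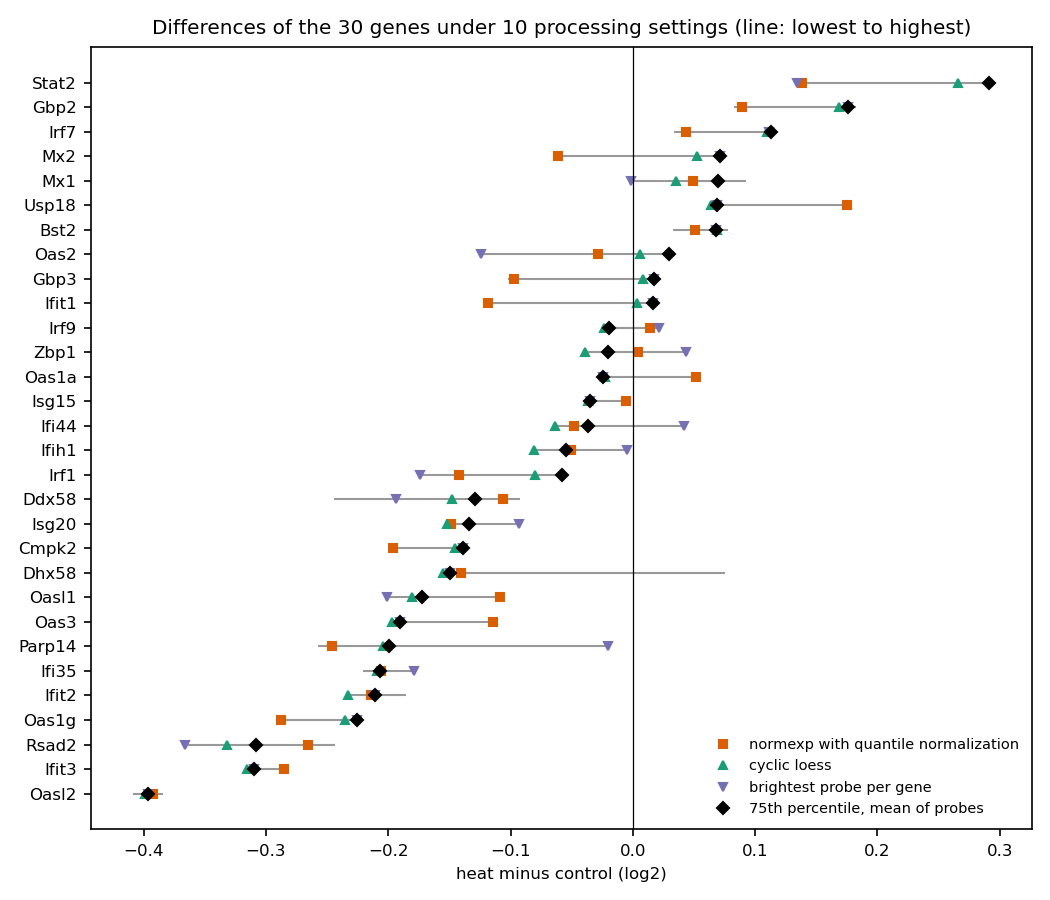
Heat minus control difference (log2) of each member under 10 processing settings, ordered by the value with 75th percentile scaling (black diamond), with the grey line from the lowest to the highest value and marks for normexp with quantile normalisation, cyclic loess and the brightest probe. Oasl2, Ifit3 and Rsad2 lie left of -0.24 throughout, whereas Stat2 runs from 0.13 to 0.29.

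The sign of 15 members was negative under all 10 settings that could measure them, and that of 5 members (Bst2, Gbp2, Irf7, Stat2 and Usp18) was positive. The other 10, among them Ifit1, Oas1a, Oas2, Gbp3 and Dhx58, had values on both sides of 0. The median over the members ran from -0.11 to -0.03, and between 18 and 21 members were below 0. Without the filter on dim probes the median of all genes moved to -0.10 and 64.1% of all genes were below 0. In that setting 12 members lay below the median of all genes, so the lean of the members relative to the array was not kept.

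Signal level bears on these values, because dim genes scatter more. Of the members, 11 belonged to the brightest 25% of measured genes and 13 to the next 25%. Among the brightest, 8 of the 11 members were below 0, against 50.2% of all genes there, and 2 of them reached the step of 0.25 downwards, against 3.12% of all genes there. Those 2 were Oasl2 and Ifit3. In the next 25%, 8 of 13 members were below 0, against 46.6% of all genes there.

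**Figure D4:**
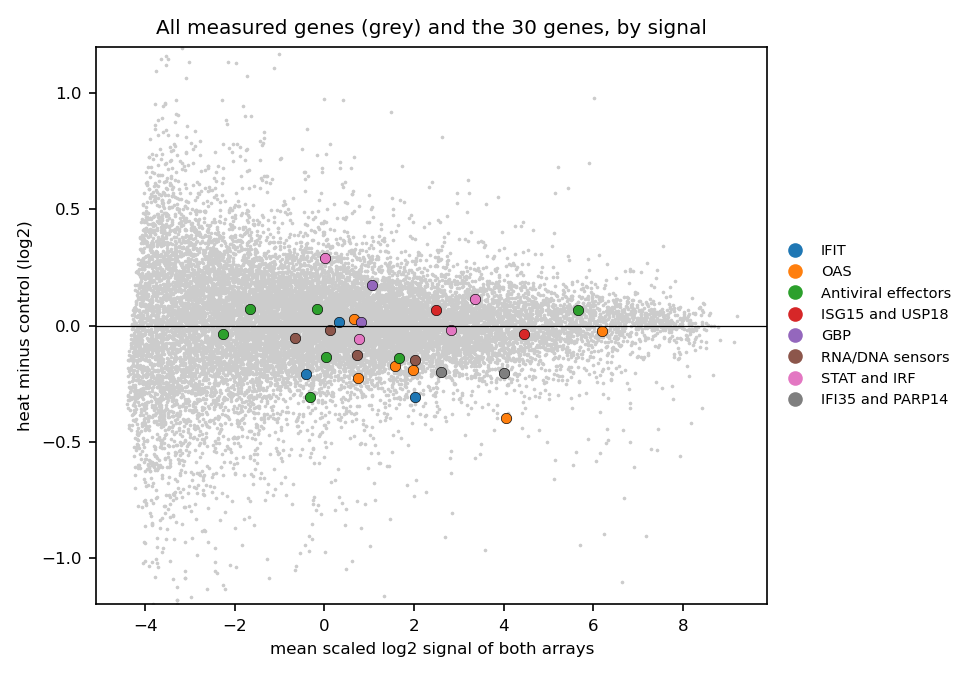
Heat minus control difference (log2) against the mean scaled log2 signal of both arrays for all 18562 measured genes (grey) and the 30 members (coloured by role). The axis ends at 1.2 on either side, which leaves out 76 grey genes, and the members lie at middle to high signal, where the grey cloud is narrow.

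The wider pathway was described through lists chosen by function. Of 16 interferon genes on the array, 7 were well above background on both arrays and 9 on neither, among the latter Ifnb1 and Ifng, which encode interferon beta and interferon gamma. The 7 were dim, with log2 signals from 5.08 to 6.35. Ifna9 (0.28), Ifnab (-0.22) and Ifna14 (-0.18) were farthest from 0, and Ifnl3 (-0.06), Ifna5 (0.04), Ifna1 (-0.03) and Ifnk (-0.02) were close to it. Genes of the interferon alpha family are near-identical copies, and their probes may not tell them apart. Their median was -0.03, and it became 0.06 with normexp and percentile scaling, so no direction can be given for the ligands.

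The receptor and kinase genes were almost level. Of 10, 9 were measured, with a median of 0.02 and none past the step of 0.25. That step was reached by 8.72% of all measured genes downwards and 9.18% upwards. Ifnar1 and Ifnar2, the chains of the type I interferon receptor, were at 0.02 and 0.03. Ifngr1 and Ifngr2, the chains of the interferon gamma receptor, were at 0.03 and -0.00, and Il10rb, a chain of the lambda receptor, was at -0.05. The kinases Jak1, Jak2 and Tyk2 were at -0.05, 0.11 and -0.03. These receptors and kinases were thus nearer to 0 than Stat2 (0.29), whose value rested on its dim probe. The bright Stat2 probe, at 0.13, was little farther from 0 than Jak2.

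Of 14 negative regulators, 12 were measured, with 6 on each side of 0 and a median of 0.01. Socs1, which inhibits the JAK kinases, was the lowest at -0.55, with log2 signals of 7.46 with heat and 8.06 in the control at its single probe. Trex1, a nuclease that removes cytosolic DNA, was at -0.19. Irf2 and Socs3 were at 0.12 and 0.09. The list held 1 gene past the step of 0.25 downwards and 0 upwards, against 8.72% and 9.18% of all measured genes.

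All 17 genes of upstream sensing were measured, with 11 above 0 and a median of 0.07. Of the list, 35.3% lay below 0, against 47.8% of all measured genes. Irf8, a transcription factor of monocytes and dendritic cells, was highest at 0.31. Tlr7, an endosomal sensor of single-stranded RNA, was at 0.21. Mb21d1, which encodes the DNA sensor cGAS, was at -0.21, and Tmem173, which encodes its partner STING, was at 0.14. These genes thus pointed to both sides. The 4 sensors among the members were all below 0, but Ifih1 and Zbp1 were within the spot SD of 0. The signs of Dhx58 and Zbp1 also changed with the processing setting.

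A list of 74 further interferon-stimulated genes on the array, of which 71 were measured, had a median of -0.02. Values below 0 were found for 41 of the 71 (57.7%), against 47.8% of all measured genes, and 30 were above 0. The step of 0.25 was reached by 5 genes in each direction, against 8.72% of all measured genes downwards and 9.18% upwards. Oas1d (-0.70), Ifitm1 (0.51), the chemokine gene Cxcl10 (-0.46) and Apol9a (-0.36) were farthest from 0 among genes whose probes had a common sign. Cxcl10 had log2 signals of 8.43 with heat and 8.93 in the control. For 12 genes of antigen presentation by class I molecules, which interferon gamma induces, the median was 0.01, with 8 above 0 and 33.3% below it. Their activator Nlrc5 was at 0.28 and the peptide transporter gene Tap2 at -0.20, while the proteasome gene Psmb8 (0.07) and the class I gene H2-K1 (0.05) were near 0.

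**Figure D5:**
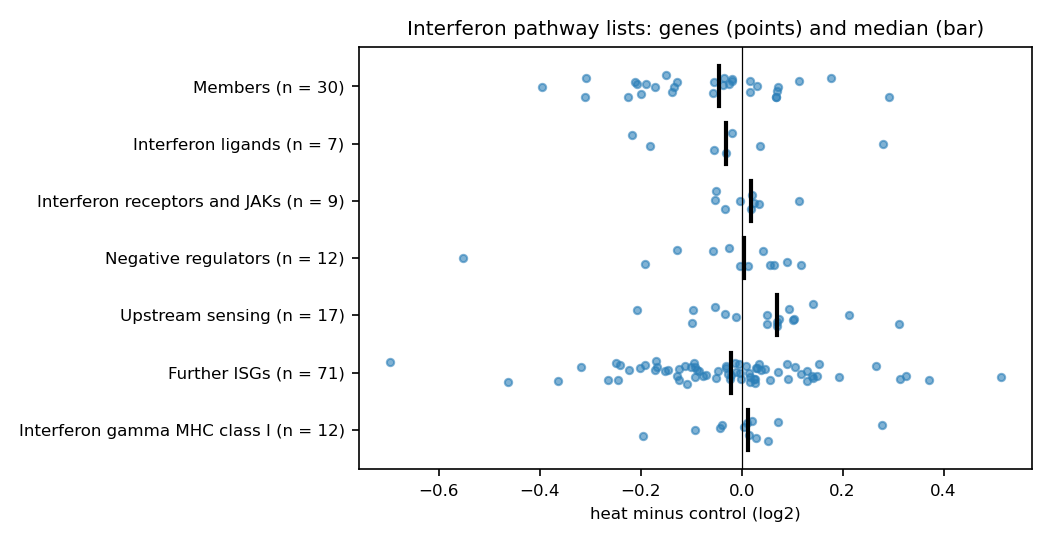
Heat minus control difference (log2) of the measured genes of the 30 members and of 6 further lists of the interferon pathway, with a black bar at each list's median. The medians run from -0.05 in the members to 0.07 in upstream sensing, and the lists overlap throughout.

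The blood label was set against cell type markers, because each leukocyte type carries its own level of these transcripts. All 12 monocyte and macrophage markers were well above background on both arrays, among them Csf1r and Lyz2, with a median difference of 0.07 and summed scaled log2 values of 41.0 with heat and 39.9 in the control. Of 9 plasmacytoid dendritic cell markers, 7 were detected with heat and 6 in the control, Ccr9 and Klk1 on neither. The 6 measured ones had a median difference of -0.37 and summed values of 1.14 and 2.5. Siglech was at -0.19, Cox6a2 at -0.67, Runx2 at -0.62 and Pacsin1 at -0.54, whereas Spib was at 0.52 and Tcf4 at 0.15. Runx2 and Spib were dim, at 1 probe each. Their log2 signals were 5.19 and 6.21 with heat and 5.85 and 5.73 in the control. Siglech was the brightest of these markers, with log2 signals of 15.3 with heat and 15.6 in the control.

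Of the other types, 7 of 10 neutrophil, 6 of 8 T cell, 2 of 7 B cell, 2 of 9 erythroid and 2 of 8 platelet markers were detected on each array, and 3 of 8 natural killer cell markers with heat against 2 in the control. Of 7 conventional dendritic cell markers, 4 were detected with heat and 3 in the control. Cd79a and Ms4a1 of B cells and Ly6g of neutrophils were on neither array, which is unusual for mouse blood. The medians of the measured neutrophil and T cell markers were 0.01 and 0.16, and those of the conventional dendritic cell, B cell, erythroid and platelet markers rested on 2 genes each, at 0.12, 0.18, 0.01 and 0.33. The 2 measured natural killer cell markers were apart, with Prf1 at -1.68 and Klrb1c at -0.01. Prf1 rested on 1 probe, with log2 signals of 5.52 with heat and 7.24 in the control. The part of cell composition in the members' differences was not tested.

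Members with and without the ISRE core were set side by side, and their ranges overlapped. The 13 genes with the motif in the window had a median difference of -0.04, from -0.31 (Ifit3) to 0.29 (Stat2), and 8 of them were below 0. The 10 genes with a window but without the motif had a median of -0.14, from -0.40 (Oasl2) to 0.11 (Irf7). Of these 10, 9 were below 0, among them Oasl2, Ifit2 and Ifi35. With 1 array a group, whether the motif bears on the differences was not tested. Over the measured genes outside the set, 393 with the motif had a median of 0.00 and 49.6% were below 0, and 10015 without it had a median of 0.00 with 49.2% below 0. The Gbp2 and Ifit3 stretches printed above carry the same letters in their capitals, and the genes stood at 0.18 and -0.31. Ifit3, however, had a second match in its window and Gbp2 did not, so their motif content was not alike.

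Other motifs were searched in the same windows. The gamma-activated sequence of interferon gamma signalling (GAS), searched as TTCNNNGAA, which reads the same on either strand, was found in 6 of the 23 genes (26.1%) and in 9.55% of all genes. These were Bst2, Ifi35, Ifit2, Irf1, Isg20 and Oas1a, and in Bst2 it overlapped the ISRE core. The heat shock element, searched as GAANNTTCNNGAA or TTCNNGAANNTTC, was found in 1 of the 23 genes (4.35%), Bst2, and in 0.662% of all genes. Bst2 was at 0.07, within the spot SD.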

How the data were processed

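The file headers name Agilent Feature Extraction 10.7.1.1, protocol GE1_107_Sep09 and mm9 probe coordinates, whereas version 9.1 of the software stands in the submitters' processing notes. Per the file headers, the deposited scanner values are linear intensity values (processed signal and its error, mean signal, local background) and other values that flag spots. The authors' deposited value table holds log2 values, which matched quantile-normalised log2 processed signals (r of 1, median 5.27 in each column, same direction), so its scale and direction are known.

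Each array held 59305 spots outside the controls for 56605 probes. Log2 signals were averaged over a probe's spots without outlier spots (168 heat, 149 control); saturation flags were absent. A probe was well above background if over 0.5 of its spots were flagged so. Differences are log2 processed signal minus the 75th percentile of the array. Members and lists were chosen with earlier results of these data known. All members are named, and of each pathway list up to 4 genes with the largest difference and a common sign at all probes, plus the detected ligands, the receptors and the JAK kinases; a gene that the rule also names is not reported here. The RefSeq table (GRCm38.p6) gave the same symbol for 42 of the 49 member probes; the others' records were not in the table, and no member was renamed. With 1 array a group there is no p-value, and the number of arrays limits the precision. The steps were tested on simulated data with planted differences of more than 2-fold, so differences as small as those of the members were not tested there. Alternatives were quantile normalisation, normexp (offset 50) with the 75th percentile or quantile normalisation, cyclic loess, the median of detected probes, the authors' table, no dim filter, the brighter 50% of detected probes and the brightest probe per gene. The software was Python 3.11.15 with pandas 2.3.3, numpy 2.4.6 and matplotlib 3.10.9, and R 4.3.3 with data.table (version 1.17.8) and limma 3.58.1.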

Additional observations from a re-analysis of the deposited data

How the results depend on the processing

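Over the 9 alternatives, the median of the members kept its direction but ran from -0.11 to -0.03, with -0.10 under each normexp setting. The count of members below 0 was 18 to 21, and the count lower by 0.25 was 3 or 4. Of the results that answer a comparison, 172 alternative values stayed within the spread of repeated spots or within 1.5 times the count, and 9 did not. Without the filter on dim probes the median of all genes was -0.10. The count of members higher by 0.25 was 0 under normexp with the 75th percentile, normexp with quantile normalisation, the brighter 50% of detected probes and the brightest probe per gene. The median of the Gbp genes was -0.0090 under normexp with the 75th percentile and -0.0038 under normexp with quantile normalisation. The median of Ifi35 and Parp14 was -0.10 with the brightest probe. The median of the interferon ligands was 0.063 under normexp with the 75th percentile. The cause of these moves was not tested, except that in the brightest-probe and brighter-probe settings the dim Stat2 probe was left out. The brightest-probe setting also left out the dimmer Parp14 probe (-0.38), with Parp14 then at -0.02 and Ifi35 at -0.18. For single members, 244 values stayed within that spread and 22 did not. No replicate could be left out, since each group held 1 array. No paired analysis was possible because each group held 1 array. Probes near background, such as those of Ifi44 and the ligands, limit what can be said of them.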

Other observations

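Position along the transcript was a further property of the members' probes. For 9 members with at least 2 usable probes on a transcript record, probes were compared by their distance from the 5′ end. The difference (heat minus control) at the farthest probe was set against that at the nearest. Mx1 was left out because the annotated genome stretches of its probes overlap, although their positions in the transcript do not. Its near probe gave 0.14 and its far probe -0.00. The far probe gave the lower difference in 7 of 9 (77.8%), with a median of -0.12 for far minus near. It did so in 53.9% of 4221 such transcripts on the array, with a median of -0.01 and an SD of 0.24. Stat2 (-0.31), Oas2 (-0.31), Irf1 (-0.23) and Ddx58 (-0.19) had the lowest values of far minus near, and Parp14 (0.36) had the highest. The near probe was the dimmer one in all 9 members, as in 86.2% of those transcripts, so position and signal level cannot be told apart in these genes.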
